A study of Mus musculus with 6 samples.

Results

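The genes described here are the ABC drug efflux transporters *Abcb1a*, *Abcb1b*, *Abcg2*, *Abcc1*, *Abcc4*, *Abcc5* and *Abcc6*, which are 7 of the 56748 genes in the deposited count table and were taken by their gene symbols. They were measured by RNA-Seq in endothelial cells (ECs) isolated from the spinal cord of P16 mice, to ask how the loss of TDP-43, an RNA-binding protein encoded by *Tardbp*, alters the EC transcriptome. The 3 control mice carried floxed *Tardbp* alleles and no Cre. The 3 TDP-43iΔEC mice carried the same alleles with Cdh5(PAC)-CreERT2, in which the promoter of the EC gene *Cdh5* drives a Cre that is active only after tamoxifen. Both genotypes received tamoxifen at 1 mg/mL from P5 to P7, so the controls account for the drug but carry no Cre. Each mouse gave 1 library, made by SMARTseq2, a low-input method that amplifies cDNA from polyadenylated RNA.

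ABC transporters are membrane proteins that use ATP to move their substrates across a membrane. In CNS ECs, P-glycoprotein and the breast cancer resistance protein lie on the side of the cell that faces the blood and return many lipophilic drugs and toxins to it, and several multidrug resistance proteins of the ABCC subfamily export organic anions and conjugates. In the mouse, P-glycoprotein is encoded by a pair of neighboring genes, *Abcb1a* and *Abcb1b*, of which *Abcb1a* is the form of brain ECs, whereas humans have a single gene.

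*Abcb1a*, *Abcc4* and *Abcc6* had lower mean levels in TDP-43iΔEC than in control mice (70.5%, 54.5% and 52.1% of the control mean), with no overlap between the 3 mice of each genotype, but none of the 7 genes passed the test across all genes. *Abcg2*, the most abundant of them, had a mean level of 104.0% of control. In limma, 0 of 7 genes had an adjusted p under 0.05, compared with 0.137% of the 13107 genes tested, and the lowest adjusted p was 0.308. Without adjustment, 3 of 7 had a limma p under 0.05, all with a lower mean, against 9.27% of all tested genes in either direction and 5% with a lower mean. With edgeR, 0 of 7 passed and 2 of 7 had an unadjusted p under 0.05 (6.47% of all genes). With DESeq2, 0 of 7 passed (1.91% of all genes), but *Abcb1b* and *Abcc1* were given no p. The 3 genes with separate groups were all lower as well, against 7.93% of all tested genes. The median log2 fold change was −0.52 for the 7 genes and −0.02 for all tested genes.

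The libraries held 25704871 to 47270654 counts, of which the 7 genes took 0.161% to 0.258%, and 3 counts corresponded to 0.0635 to 0.117 CPM, the count scaled to a common library size. *Tardbp* was at 55.3 to 61.9 CPM in control and 11.8 to 26.6 CPM in TDP-43iΔEC mice. Its log2 fold change was −1.62 (limma adjusted p = 0.287, unadjusted p = 0.00332), so *Tardbp* itself did not pass the threshold. In a multidimensional scaling, control mouse 2 stood apart on the first dimension and TDP-43iΔEC mouse 1 on the second. The 10 EC markers, all tested, summed to 12832–16808 CPM in control and 11147–13631 CPM in TDP-43iΔEC mice, and 0 of 10 passed the test. Among them, *Flt1*, *Tek* and *Kdr* were lower without overlap, against 7.93% of all tested genes. Their means were 61.7%, 79.1% and 82.8% of control (*Flt1* limma adjusted p = 0.0635), and the groups of the other EC markers overlapped. A scaling to the summed EC markers carries these lower levels. It also depends on *Cldn5*, the most abundant of the 10, whose groups overlapped. *Cldn5* was at 7955, 6127 and 5298 CPM in control and 4852, 6498 and 5400 CPM in TDP-43iΔEC mice, highest in control mouse 1. Sums of other markers ranged from 555 to 972 against 427 to 980 CPM for 9 mural genes, from 37.4 to 44.2 against 12.6 to 39.8 CPM for 5 fibroblast genes, and from 305 to 609 against 15.5 to 491 CPM for 6 oligodendrocyte genes. They were 238 to 260 against 128 to 177 CPM for 6 astrocyte genes and 5.13 to 12.0 against 1.93 to 3.21 CPM for 6 neuronal genes. Most of the astrocyte sum was *Gja1*, at 242, 209 and 239 CPM in control and 103, 170 and 170 CPM in TDP-43iΔEC mice. Each other astrocyte gene was at most 23.3 CPM in any mouse, and *Gfap* overlapped between the genotypes. The 7 microglia and macrophage genes summed to at most 3.27 CPM, and *Adgre1* among them was at 0 in all libraries. Markers of erythrocytes were lower in TDP-43iΔEC mice (6935 to 10576 against 2034 to 2884 CPM), and 4 of 5 passed the test. In a limma fit with hemoglobin, mitochondrial and rRNA genes left out, *Abcb1a*, *Abcc4* and *Abcc6* had log2 fold changes of −0.48, −0.82 and −1.07. With all genes these were −0.52, −0.86 and −1.10. The part of erythrocytes in the values below was not tested otherwise. In bulk libraries, fewer cells of a type cannot be told apart from less RNA per cell.

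*Abcb1a* (GRCm39 chr5:8710022-8798575, plus strand, 28 exons) was at 767, 836 and 766 CPM in control mice 1, 2 and 3 and at 593, 439 and 637 CPM in TDP-43iΔEC mice 1, 2 and 3, after scaling by the trimmed mean of M values (TMM). Every TDP-43iΔEC value lay below every control value, and the spread was wider among TDP-43iΔEC mice (SD 104 CPM) than among controls (SD 40.4 CPM, n = 3 each). The log2 fold change was −0.52 (SE 0.16, 95% interval −0.88 to −0.16), with a limma adjusted p of 0.381 (unadjusted p = 0.00998). When counts were scaled to the summed EC markers instead, *Abcb1a* stood at 45.6 to 60.5 per 1000 marker counts in control and at 32.2 to 57.2 in TDP-43iΔEC mice, so that the groups overlapped and the log2 fold change was −0.26 (limma unadjusted p = 0.297). Scaling by library size alone gave −0.33 (limma unadjusted p = 0.0558). These scalings moved the median log2 fold change of all tested genes from −0.02 to 0.25 and 0.18, so that *Abcb1a* stayed below that median in each.

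**Figure D1:**
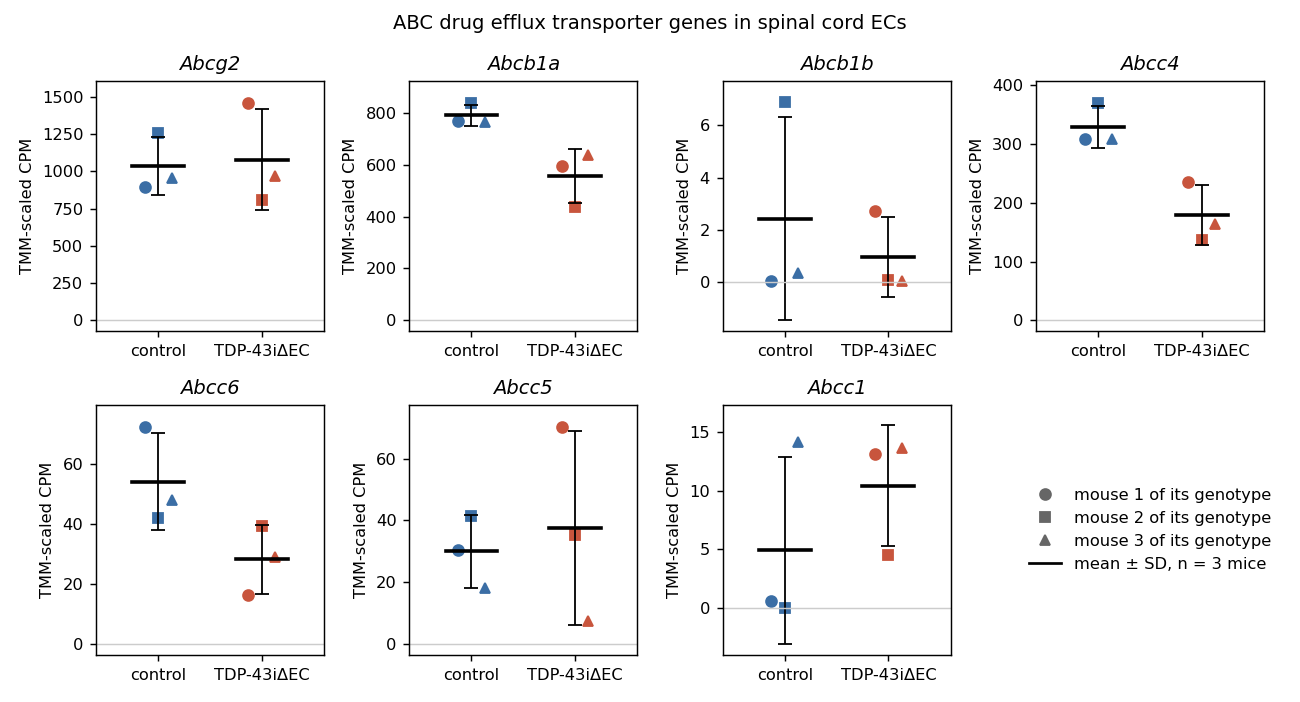
TMM-scaled CPM (vertical axis, linear, a separate scale for each gene) of the 7 efflux transporter genes in the 3 control and the 3 TDP-43iΔEC mice; points are single mice, bars are means and error bars are SD. For *Abcb1a*, *Abcc4* and *Abcc6* all TDP-43iΔEC points lie below all control points, and for the other 4 genes the groups overlap.

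*Abcb1b* (chr5:8847994-8916389, plus strand, 28 exons), the second P-glycoprotein gene, starts 49418 bp downstream of the end of *Abcb1a*. It had 1, 286 and 15 counts in control mice and 133, 3 and 1 counts in TDP-43iΔEC mice. The highest value of each genotype came from the libraries that stood apart, control mouse 2 (6.91 CPM) and TDP-43iΔEC mouse 1 (2.74 CPM), and the groups overlapped. The log2 fold change of −0.61 had an interval of −6.79 to 5.57 (limma adjusted p = 0.961), and it was 1.41 without control mouse 2.

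Reads from *Abcb1a* and *Abcb1b* can be hard to assign, because their coding sequences, of 3831 bases each, were identical at 88% of aligned bases. Of the 51-base windows of *Abcb1b*, the read length of this study, 755 of 3781 (20%) occurred unchanged in *Abcb1a*. The first pair of sequences below, 120 bases of each coding sequence from GRCm39, shows a stretch where a read cannot tell the genes apart. The second pair shows the stretch where they differ most, with the 38 mismatches in capitals.
Abcb1a, coding bases 1357 to 1476: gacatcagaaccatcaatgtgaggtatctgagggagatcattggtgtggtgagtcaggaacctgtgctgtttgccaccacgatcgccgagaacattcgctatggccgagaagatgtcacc
Abcb1b, coding bases 1366 to 1485: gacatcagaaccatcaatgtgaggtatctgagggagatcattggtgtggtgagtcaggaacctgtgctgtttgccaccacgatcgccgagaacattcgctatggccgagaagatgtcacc
Abcb1a, coding bases 2128 to 2247: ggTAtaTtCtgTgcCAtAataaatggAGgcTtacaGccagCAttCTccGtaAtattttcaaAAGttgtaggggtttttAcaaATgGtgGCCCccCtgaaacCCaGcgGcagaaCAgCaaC
Abcb1b, coding bases 2134 to 2253: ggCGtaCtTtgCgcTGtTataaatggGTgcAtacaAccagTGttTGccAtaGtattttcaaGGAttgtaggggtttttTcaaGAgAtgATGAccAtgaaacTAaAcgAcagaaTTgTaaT

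The authors' estimated counts divide shared reads between genes, so the sum of both genes was also compared. On the library-size scale it was 747, 770 and 707 CPM in control and 644, 484 and 643 CPM in TDP-43iΔEC mice. All 3 TDP-43iΔEC values were below all 3 control values, as for *Abcb1a* alone, with a log2 difference of −0.34 and a 2-sided exact permutation p of 0.1, the smallest that 3 against 3 mice allow. This difference was −0.52 with TMM scaling, −0.26 with scaling to the EC markers (2-sided exact permutation p = 0.5) and −0.20 without TDP-43iΔEC mouse 2. *Abcb1b* supplied 0.00304%, 0.819% and 0.0449% of this sum in control mice and 0.459%, 0.0220% and 0.00605% in TDP-43iΔEC mice. The share was under 1% in every mouse and overlapped between genotypes (2-sided exact permutation p = 0.7), so *Abcb1a* carried nearly all P-glycoprotein counts.

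*Abcg2* (chr6:58561505-58672661, plus strand, 16 exons) encodes the breast cancer resistance protein. It was at 896, 1257 and 952 CPM in control and at 1456, 805 and 969 CPM in TDP-43iΔEC mice. TDP-43iΔEC mice held both the highest and the lowest of the 6 values, so the groups overlapped fully. The log2 fold change was 0.08 (SE 0.23, 95% interval −0.44 to 0.59, limma adjusted p = 0.934), and it turned to −0.22 without TDP-43iΔEC mouse 1. No blastn alignment of its transcript of 51 bp or more reached 97% identity with another gene. An identical stretch within a longer, less similar alignment would be missed, so shared reads were not excluded.

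*Abcc4* (chr14:118720103-118943924, minus strand, 31 exons) encodes multidrug resistance protein MRP4, which exports cyclic nucleotides, conjugated steroids and nucleoside analog drugs. It was at 308, 369 and 309 CPM in control mice and at 236, 137 and 164 CPM in TDP-43iΔEC mice. The groups did not overlap, and its unadjusted p was the lowest of the 7 genes. The log2 fold change was −0.86 (SE 0.23, 95% interval −1.37 to −0.35), with a limma adjusted p of 0.308 (unadjusted p = 0.00427). Per 1000 EC marker counts it stood at 18.3 to 26.7 in control and 10.1 to 20.7 in TDP-43iΔEC mice, where the groups overlapped (log2 fold change −0.61, limma unadjusted p = 0.0632).

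*Abcc6* (chr7:45616979-45679859, minus strand, 31 exons) encodes MRP6, a transporter of liver and kidney known for its role in limiting ectopic mineralization. It was at 72.4, 42.0 and 48.2 CPM in control and at 16.4, 39.4 and 28.9 CPM in TDP-43iΔEC mice. The groups did not overlap, although TDP-43iΔEC mouse 2 came close to control mouse 2. The log2 fold change was −1.10 (SE 0.43, 95% interval −2.08 to −0.12), with a limma adjusted p of 0.498 (unadjusted p = 0.0313). Without TDP-43iΔEC mouse 1 it was −0.63 (limma unadjusted p = 0.197), and with library-size scaling the groups overlapped.

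*Abcc5* (chr16:20150053-20245192, minus strand, 30 exons) encodes MRP5, an exporter of cyclic nucleotides and organic anions. It was at 30.3, 41.5 and 18.0 CPM in control and at 70.2, 35.2 and 7.60 CPM in TDP-43iΔEC mice. The values of TDP-43iΔEC mice lay on both sides of all control values. The log2 fold change was 0.21 (SE 0.72, 95% interval −1.41 to 1.84, limma adjusted p = 0.942) and −0.67 without TDP-43iΔEC mouse 1.

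*Abcc1* (chr16:14179311-14293601, plus strand, 31 exons) encodes MRP1, an exporter of glutathione conjugates. It had 24, 0 and 615 counts in control and 638, 140 and 354 counts in TDP-43iΔEC mice. Control mouse 3 reached the level of the TDP-43iΔEC mice, and control mouse 1 was far below it. The 0 counts of control mouse 2 allow a level of up to 0.0724 CPM after TMM scaling, a bound that covers counting error only. Its library had the fewest genes detected of all (12972, against 16557 and 16123 in control mice 1 and 3). The fitted log2 fold change of 4.41 (95% interval −0.46 to 9.28, limma adjusted p = 0.560) rests on these low control values and is not a bound. It was 1.75 without control mouse 2, 6.89 without control mouse 3 and 1.09 with edgeR. Among the 7 genes, the intervals of *Abcc5* and *Abcb1b* reached beyond 1 log2 unit on both sides of 0.

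**Figure D2:**
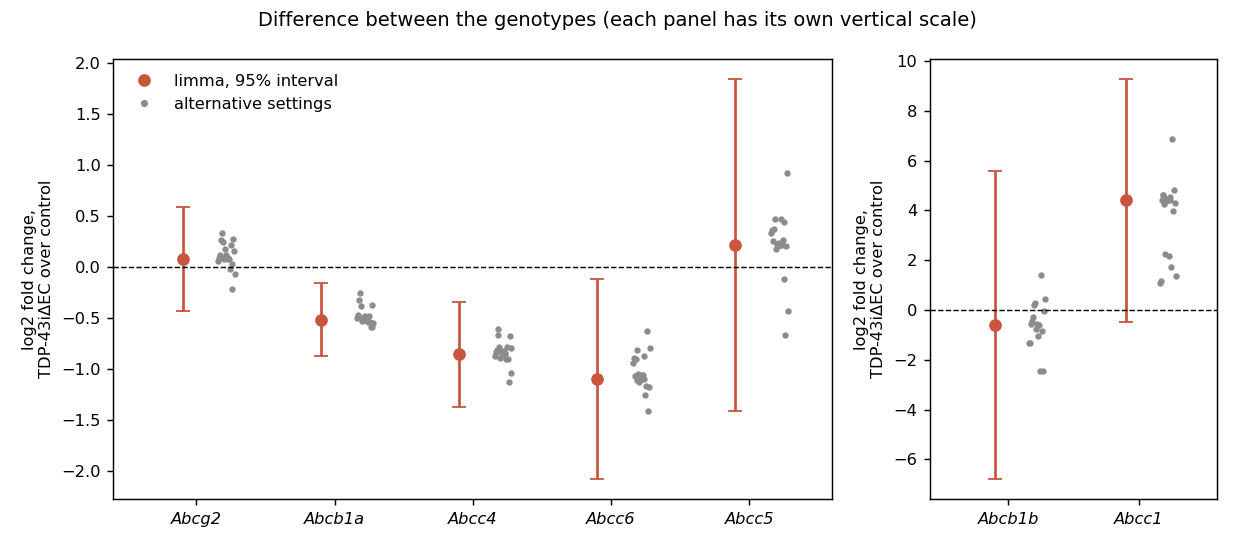
Log2 fold change of TDP-43iΔEC over control (vertical axis) for the 7 genes, with *Abcb1b* and *Abcc1* on a wider scale. Red points are limma values with 95% intervals and grey points are the alternative settings, which stay below 0 for *Abcb1a*, *Abcc4* and *Abcc6* and lie on both sides of 0 for *Abcg2*, *Abcc5* and *Abcb1b*.

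Levels of different genes were compared as CPM per kb of canonical transcript. *Abcg2* (192 ± 36.0 in control, 199.7 ± 62.7 in TDP-43iΔEC mice), *Abcb1a* (156 ± 7.99 and 110 ± 20.7) and *Abcc4* (54.6 ± 5.85 and 29.8 ± 8.50, SD, n = 3 each) held ranks 1, 2 and 3 among 53 ABC genes in control mice. *Abcg2* was above *Abcb1a*, and *Abcb1a* above *Abcc4*, in each of the 6 mice. *Abcc6* (7.35 ± 2.18 in control) and *Abcc5* (5.11 ± 2.01) followed at ranks 16 and 17 with overlapping values. *Abcc1* (0.708 ± 1.16) and *Abcb1b* (0.530 ± 0.850) were at ranks 30 and 31, and their order did not exceed the spread between mice.

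**Figure D3:**
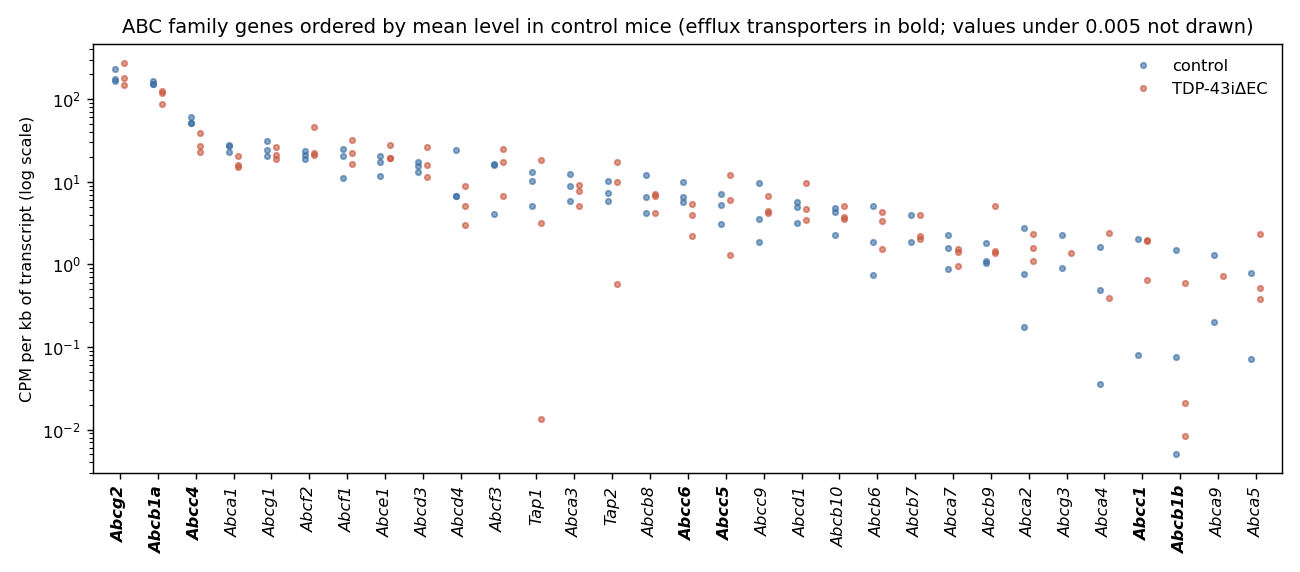
CPM per kb of transcript (vertical axis, log scale) of the 31 ABC genes with a mean of at least 0.05 in both genotypes, ordered by their mean in control mice; each point is 1 mouse and the efflux transporters are in bold. *Abcg2*, *Abcb1a* and *Abcc4* lie above the other ABC genes in control mice, and *Abcc1* and *Abcb1b* near the lower end.

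Shares of the summed CPM per kb of the 7 genes do not depend on how libraries are scaled, and were added after the values were seen. *Abcc4* made up 13.3%, 12.9% and 13.1% of the sum in control mice and 8.85%, 8.42% and 8.02% in TDP-43iΔEC mice. Its share was narrow within each genotype (13.1% ± 0.186 and 8.43% ± 0.419, SD, n = 3) and lay below the control range in all 3 TDP-43iΔEC mice (2-sided exact permutation p = 0.1, the smallest possible). *Abcg2* took 43.3%, 49.1% and 45.1% in control and 60.9%, 55.1% and 52.8% in TDP-43iΔEC mice, higher in all 3 (2-sided exact permutation p = 0.1). The shares of a mouse are parts of a whole, so a larger *Abcg2* share goes with smaller shares of other genes. The CPM of *Abcg2* itself overlapped between the genotypes. *Abcb1a* took 34.9% to 39.5% in control and 26.5% to 37.1% in TDP-43iΔEC mice, which overlapped (2-sided exact permutation p = 0.2). The ratio of *Abcg2* to *Abcb1a* counts was 1.17, 1.50 and 1.24 in control and 2.45, 1.84 and 1.52 in TDP-43iΔEC mice, a log2 difference of 0.55 (2-sided exact permutation p = 0.1). The groups of this ratio were separated only narrowly, by control mouse 2 and TDP-43iΔEC mouse 3. The ratio of *Abcc4* to *Abcb1a* counts was 0.401, 0.441 and 0.403 in control and 0.398, 0.313 and 0.258 in TDP-43iΔEC mice. Its log2 difference was −0.38 (2-sided exact permutation p = 0.1). TDP-43iΔEC mouse 1, which had the largest *Abcg2* share, lay close to control mice 1 and 3 in this ratio. The sum itself was 384.3, 474.3 and 391.3 CPM per kb in control and 443.4, 271.0 and 340.5 CPM per kb in TDP-43iΔEC mice, which overlapped.

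**Figure D4:**
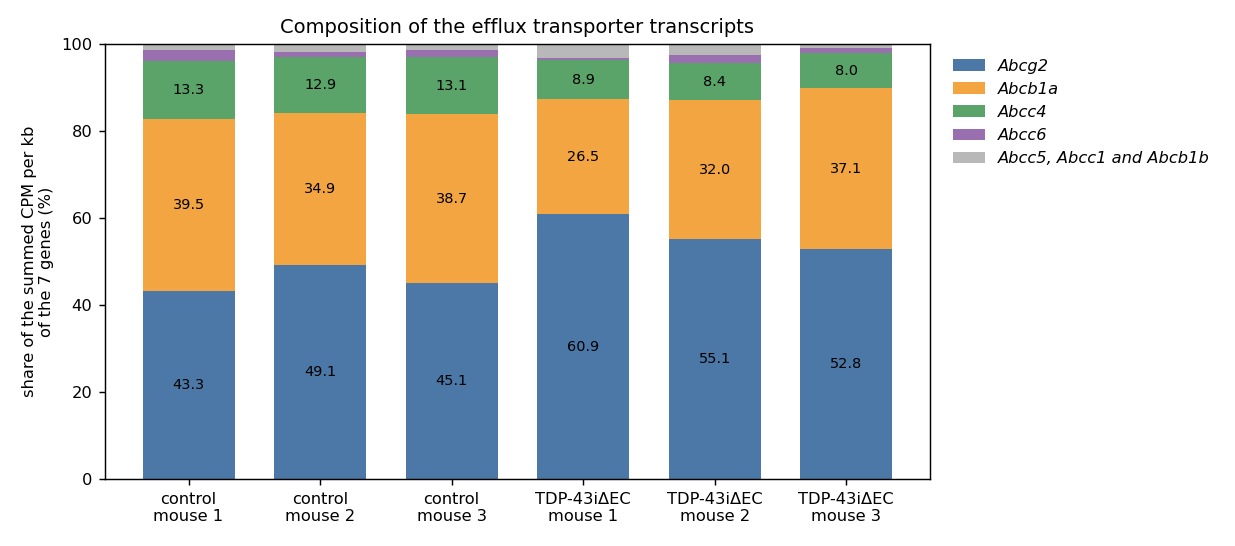
Share of each gene in the summed CPM per kb of the 7 efflux transporter genes (vertical axis, percent), 1 bar per mouse. The *Abcc4* segment is between 12.9% and 13.3% in control and between 8.02% and 8.85% in TDP-43iΔEC mice, and the *Abcg2* segment is larger in all 3 TDP-43iΔEC mice.

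The 250 bases before the canonical start of the 3 most abundant genes are shown as a description. The log2 CPM of *Abcb1a* and *Abcc4* moved together over the 6 mice (Pearson r = 0.906) and that of *Abcg2* less so (r = 0.305 with *Abcb1a*). These r values pool both genotypes, so they include the lower levels of *Abcb1a* and *Abcc4* in TDP-43iΔEC mice. Both strands were searched for the letters TATAAA of the TATA box, CCAAT of the box of that name and GGGCGG of the GC box. Also searched were GCGTG, the core of the xenobiotic response element, and CTTTG, the core bound by the TCF/LEF factors that act with β-catenin. Matches are in capitals, in GRCm39.
Abcg2, chr6:58617251-58617500, plus strand: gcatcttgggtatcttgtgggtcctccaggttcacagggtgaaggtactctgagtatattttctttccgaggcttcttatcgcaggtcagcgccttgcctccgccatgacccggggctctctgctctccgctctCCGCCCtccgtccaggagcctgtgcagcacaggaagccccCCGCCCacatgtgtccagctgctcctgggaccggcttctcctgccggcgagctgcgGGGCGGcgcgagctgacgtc
Abcb1a, chr5:8709772-8710021, plus strand: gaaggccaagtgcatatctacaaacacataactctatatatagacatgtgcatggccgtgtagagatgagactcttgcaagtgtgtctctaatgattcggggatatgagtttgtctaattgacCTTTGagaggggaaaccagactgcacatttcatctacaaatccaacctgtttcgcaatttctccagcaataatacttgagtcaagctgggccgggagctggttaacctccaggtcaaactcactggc
Abcc4, chr14:118943915-118944164, minus strand: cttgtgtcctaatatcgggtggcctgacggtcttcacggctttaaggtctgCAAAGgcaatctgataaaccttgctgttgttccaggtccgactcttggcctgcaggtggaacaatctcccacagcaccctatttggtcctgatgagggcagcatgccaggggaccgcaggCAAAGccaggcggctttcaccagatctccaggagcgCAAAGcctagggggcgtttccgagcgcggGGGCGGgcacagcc
*Abcg2* had 3 GC boxes, *Abcb1a* 1 TCF/LEF core, and *Abcc4* 1 GC box and 3 TCF/LEF cores. Among 21757 windows of the same length before protein-coding genes, 36.3% held at least 1 GC box and 49.3% at least 1 TCF/LEF core. For the CCAAT box, the xenobiotic response core and the TATA box the shares were 36.5%, 31.2% and 11.9%. These shares give presence only, so they are no background for the number of matches in a window. These matches are descriptions of the letters and not binding sites, and a relation between them and the levels or r values was not tested. GC content was 64%, 44.4% and 59.2% for *Abcg2*, *Abcb1a* and *Abcc4*, compared with a median of 53.2%.

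Of 95 other genes of the family and its regulation, 67 were tested and 0 passed the limma threshold, with a median log2 fold change of 0.03. Without adjustment, 3 of the 67 had a limma p under 0.05 and a higher mean and 1 had a lower mean, against 9.27% of all tested genes in either direction. The latter was *Abca1*, which exports cholesterol to apolipoproteins, at 281, 290 and 232 CPM in control and 163, 157 and 213 CPM in TDP-43iΔEC mice. These groups did not overlap, as for *Abcb1a* and *Abcc4*, and the log2 fold change was −0.62 (SE 0.20, limma adjusted p = 0.396). None of the 4 tested genes among 15 other members of the ABCB, ABCC and ABCG subfamilies reached this unadjusted limit, and *Abcg1*, a sterol exporter, had a log2 fold change of −0.15 (SE 0.25, limma adjusted p = 0.859). *Abcc9*, a mural cell potassium channel subunit, had a value of 0.30 (SE 0.57, limma adjusted p = 0.884). *Abcc10* and *Abcg3* were at 0.0386 to 2.78 CPM and 0 to 6.95 CPM over the 6 mice, with overlapping groups.

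Of the genes with other tasks in the cell, *Abca3*, a lipid transporter of lamellar bodies, had a log2 fold change of −0.22, and *Abca5* ranged from 0 to 19.3 CPM with overlapping groups. Of 11 organelle transporters, 10 were tested, 6 with a positive and 4 with a negative value. Among them, the peroxisomal *Abcd3* had a log2 fold change of 0.26 and the cobalamin transporter *Abcd4* one of −1.18 (SE 0.70). *Abcd4* was at 22.6, 82.0 and 22.3 CPM in control and 9.95, 17.2 and 29.5 CPM in TDP-43iΔEC mice, with overlapping groups. *Tap1*, which loads peptides for MHC class I, ranged from 0.0411 to 57.1 CPM. The 4 genes of the ABCE and ABCF subfamilies, which act in translation and have no membrane domain, all had positive values (median 0.48), including *Abcf2* (0.52), *Abce1* (0.43) and *Abcf1* (0.29). The lowest limma adjusted p among these genes was 0.560.

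Among the regulators, *Ctnnb1*, which encodes β-catenin, was at 754 ± 79.5 CPM in control and 678 ± 57.8 CPM in TDP-43iΔEC mice (SD, n = 3 each, limma adjusted p = 0.764). *S1pr1*, the sphingosine 1-phosphate receptor, was at 817 ± 110 and 761 ± 158 CPM (limma adjusted p = 0.811), and the endothelial nitric oxide synthase gene *Nos3* was at 285 ± 60.4 and 247 ± 31.1 CPM (limma adjusted p = 0.772). *Trp53*, the p53 gene, was at 116 ± 11.6 and 160 ± 37.5 CPM (limma adjusted p = 0.606). *Ppard*, a nuclear receptor for fatty acids, was at 15.9, 13.8 and 14.6 CPM in control and 7.63, 6.93 and 1.74 CPM in TDP-43iΔEC mice, without overlap (limma adjusted p = 0.603). Of 19 tested transcription factors and cofactors, 1 was higher and 1 lower without overlap between the genotypes, and of 12 tested signaling genes, 2 were higher and 1 lower, against 15.3% of all tested genes in either direction. *Esr1*, the estrogen receptor, had 0 counts in all control mice and was at 2.51, 14.1 and 3.51 CPM in TDP-43iΔEC mice, with a limma adjusted p of 0.262. *Tlr4*, a receptor for bacterial lipopolysaccharide, was at 2.59 ± 3.45 and 25.2 ± 11.2 CPM (limma adjusted p = 0.487). *Ednrb*, an endothelin receptor, was at 1.28 to 5.60 CPM in control and 0 to 1.25 CPM in TDP-43iΔEC mice (limma adjusted p = 0.541).

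Of 6 genes that anchor membrane proteins to the cortex, *Cav1*, the main caveolin of ECs, was at 763 ± 64.1 and 708 ± 128 CPM (limma adjusted p = 0.779). *Msn*, which encodes moesin, was at 515 ± 150 and 786 ± 171 CPM (log2 fold change 0.62, SE 0.23, limma adjusted p = 0.471), and *Ezr*, which encodes ezrin, was at 23.8 ± 8.92 and 40.6 ± 3.03 CPM (limma adjusted p = 0.541). None of the 6 genes of glutathione synthesis and recycling had an unadjusted p under 0.05, and *Gclm* had a log2 fold change of 0.11 (SE 0.36, limma adjusted p = 0.941). *Gsr*, *Gclc* and *Gss* had limma adjusted p values of 0.938, 0.737 and 0.648.

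Genes among those whose TMM-scaled log2 CPM followed each abundant transporter most closely over the 6 libraries, of 7806 genes, are given as a description. They were *Nudt3*, *Dennd5a* and *Aamdc* for *Abcb1a* (Pearson r = 0.993, 0.981 and 0.981), *Wapl* and *Taf1* for *Abcg2* (r = 0.984 and 0.980) and *Sin3b*, *Ppp2r5a* and *Bbs2* for *Abcc4* (r = 0.995, 0.992 and 0.987). All share the same libraries, depth and scaling, and both genotypes are pooled. As picks from 7806 genes over only 6 libraries, such high r values can arise by selection alone, and none was tested.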

How the data were processed

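ECs were isolated from P16 spinal cord by the authors, and libraries were prepared with SMARTseq2. The authors mapped reads to GRCm39 with STAR 2.7.8a and used RSEM 1.3.0 to estimate gene counts. These deposited estimated counts were whole numbers and were not normalized or filtered. The input RNA and the number of PCR cycles varied by sample and were not given per library, and without molecular identifiers PCR copies count as reads. No label states that counting used strand, and antisense genes overlap up to 6.47% of a member's exonic bases.

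All 6 libraries were fitted with limma 3.58.1 (voom, TMM scaling and filterByExpr of edgeR 4.0.16, R 4.3.3) and without covariates. The methods of the study name limma with voom. p values were adjusted by Benjamini-Hochberg across every gene tested (threshold 0.05). Single values were compared by 2-sided exact permutation tests. DESeq2 1.42.0 and edgeR's quasi-likelihood test were alternatives. Transcript lengths and positions came from GENCODE M39 (GRCm39), and shared sequence from blastn 2.17.0. The named genes are the 7 members, *Tardbp*, list genes past the threshold, up to 2 per list by level and 2 by unadjusted p, and the 3 genes most like each abundant member, of which 1 is not reported here. The members and lists were chosen with earlier results of these data known. Samples are separate mice, grouped by the labels. The 3-count floor covers counting error only, and the limma intervals include the spread between mice.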

Additional observations from a re-analysis of the deposited data

How the results depend on the processing

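None of the 7 genes passed the threshold under any of the 20 alternatives. The count over all genes was 18 with limma, 0 with edgeR (848 with an unadjusted p under 0.05, of which 2 were members), 250 with DESeq2, 10 with library-size scaling, 1 with scaling to EC markers, 40 with quantile normalization, 76 without a filter on low counts, 39 with at least 10 counts in every library, 31 at an adjusted p under 0.1, and 0 to 13 with 1 mouse left out. It was 0 with control mouse 2 and TDP-43iΔEC mouse 1 both left out, a setting added after seeing the data. For the other listed genes the count was 0, and 1 (*Esr1*) with DESeq2 and without a filter. *Abcb1a*, *Abcc4* and *Abcc6* kept a negative sign in all alternatives (−0.59 to −0.26, −1.13 to −0.61 and −1.41 to −0.63), and the lowest adjusted p of *Abcc4* was 0.0594, with DESeq2. The sign turned for *Abcb1b* with quantile normalization (0.22), with quality weights (0.29) and with 1 mouse left out (−2.47 to 1.41). It turned for *Abcg2* with 1 mouse left out (−0.22 to 0.27) and with both mice left out (−0.072), and for *Abcc5* likewise (−0.67 to 0.92, and −0.43). The *Abcb1b* share ranged from −0.275 to 0.138 points with 1 mouse left out, and turned without control mouse 2. The cause was not tested. The labels number the mice 1 to 3 in each genotype, but deviations of same-numbered mice correlated at −0.061, −0.111 and −0.021, so the numbers were not taken as pairs. With the replicate number as a block, limma gave 22 genes in all and 0 members, and the exact permutation p was 0.25 for the sum of *Abcb1a* and *Abcb1b*, 0.75 for the *Abcb1b* share and 0.25 for the ratio of *Abcg2* to *Abcb1a*. DESeq2 gave no p for *Abcb1b* and *Abcc1*, and neither could be tested with at least 10 counts in every library. With 3 mice per genotype, an exact permutation p cannot fall below 0.1.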
